A study of Rattus norvegicus with 7 samples.

Results

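The genes described are 9 that carry or take up lipid: the apolipoproteins Apoe and Apod, the lipase Lpl, the receptors Olr1, Cd36, Scarb1 and Vldlr, and the intracellular carriers Fabp7 and Fabp5. They were taken by symbol, with every probe set that the platform annotation gives to them. This gave 17 probe sets with 1 symbol, and 5 more that the annotation assigns to both Cd36 and Cd36l1, out of 8799 on the array and 4736 gene symbols in all. RNA came from primary hippocampal astrocytes or neurons of Wistar rats, given as 17-day-old with no word on whether that age is embryonic or postnatal. Astrocytes received grape seed extract, a preparation rich in plant polyphenols, at 0, 1, 10 or 100 µg/ml, and neurons received 0, 1 or 10 µg/ml, all for 24 h. All cultures shared DMEM with glutamine, the N1 supplement, penicillin and streptomycin. With 1 Affymetrix array at each dose in either culture, 7 in all, their number limits the precision and no value at a given dose has an error.

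In brain, astrocytes secrete lipoprotein particles that carry cholesterol and phospholipid to other cells. Apolipoproteins are the protein coat of such particles, lipases free fatty acids from their triglyceride, and receptors of the low density lipoprotein and scavenger families take up particles or their lipid. Fatty acid binding proteins then carry fatty acids through the cytoplasm. Glia are a main source of apolipoprotein E, and Fabp7 is a known product of radial glia and astrocytes.

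The labelled cell types were set against marker genes. Summed neuron marker signal was 779.1 to 1660.2 on the astrocyte arrays and 12645.6 to 13221.6 on the neuron arrays. Summed astrocyte marker signal was 50447.8 to 57691.8 on the astrocyte arrays and 54693.7 to 55892.6 on the neuron arrays, so it did not separate the cultures. Of 10 astrocyte markers tested, 3 were higher and 3 lower in astrocytes (limma, adjusted p below 0.05). Among all genes tested, 12.7% were higher and 17.3% lower. Other cell types also differed between the cultures. Summed signal of 13 microglia and macrophage markers was 28729.8 to 33457.5 in astrocyte cultures and 14755.7 to 17893.9 in neuron cultures, and that of 13 fibroblast and meningeal markers was 62876.5 to 76485.6 in astrocyte cultures and 36695.4 to 40389.2 in neuron cultures. The latter list was mixed, with 7 of 12 tested markers higher and 3 lower in astrocytes by the same test. By that test 8 of 9 microglia and macrophage markers were higher and 0 lower, and 6 of 6 neuron markers were lower. Of 6 oligodendrocyte lineage markers 4 were higher and 0 lower, and of 4 endothelial and pericyte markers 0 were higher and 1 lower. Markers bright in only 1 of the cultures were tested too, which favours such calls. For 8 oligodendrocyte lineage markers the sums were 8851.8 to 14152.3 in astrocyte and 2330 to 2429.2 in neuron cultures, where Mog and Mobp were at the floor. For 7 endothelial and pericyte markers they were 1502.9 to 2303.1 in astrocyte and 2579.2 to 2636.5 in neuron cultures. The part these cells have in the values below was not tested. In such bulk RNA, fewer cells of a type and less RNA per cell cannot be told apart.

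Signals are linear intensities. A signal under 17.9, the 25th percentile, counts as at the floor. A probe set was tested where its mean log2 signal in either cell type was above 79.9, the median of all signals. Of the 17 probe sets, 13 were tested, and these belong to 7 genes. Apod and both tested probe sets of Olr1 passed through the astrocyte arrays alone. The 2 probe sets of Cd36 alone, 1 of Olr1 and that of Vldlr were not tested. Cell types were compared with limma over the 4 astrocyte and 3 neuron arrays, in which the doses stand as the only repeats, so the spread includes any dose effect. The plot of signals by gene shows every value.

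**Figure D1:**
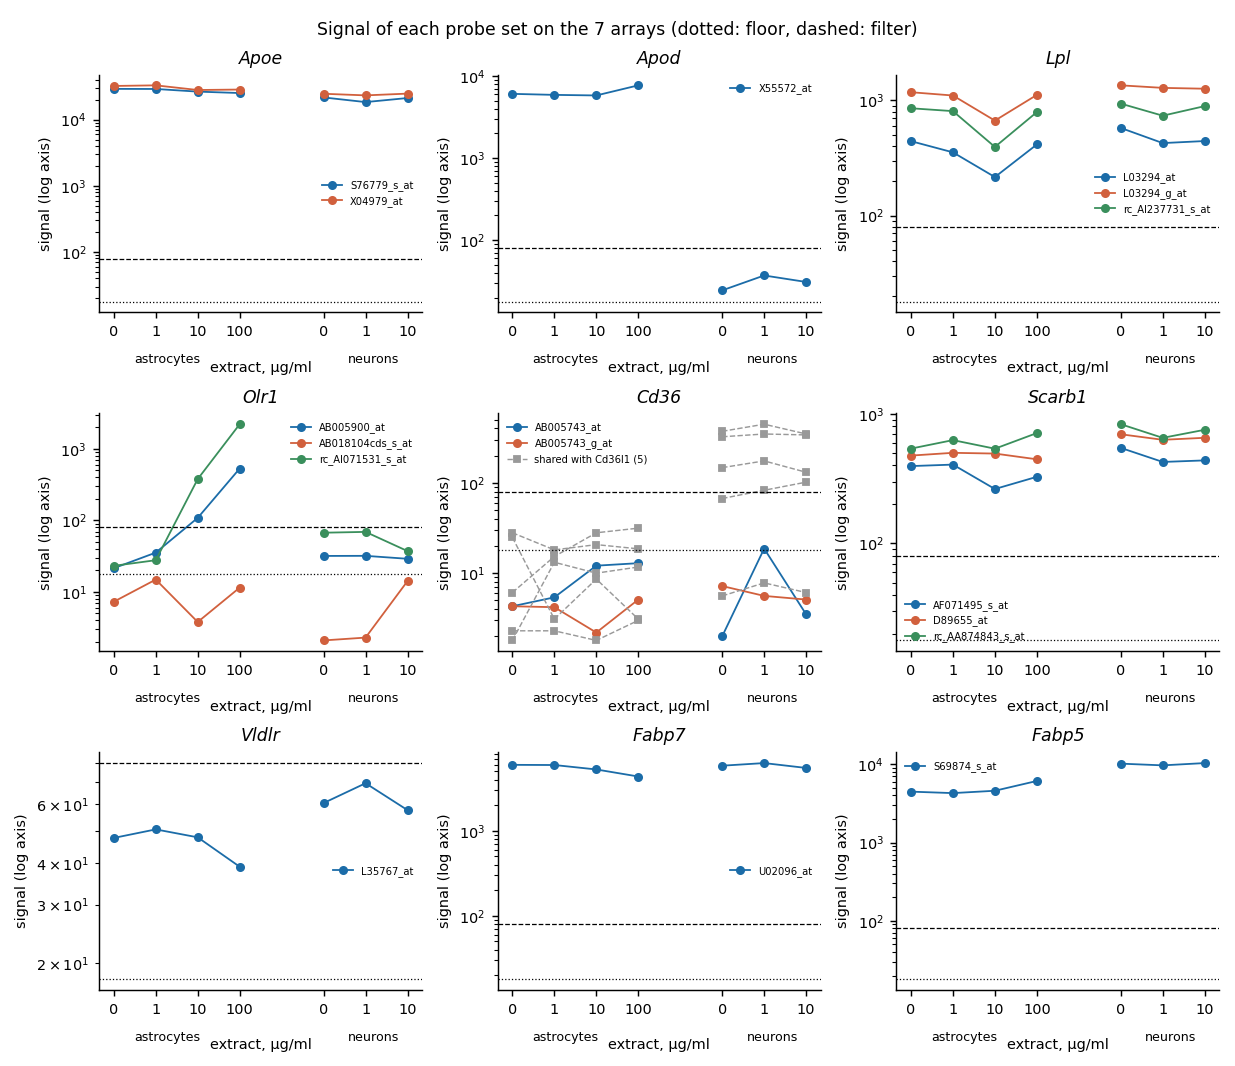
Signal of each probe set (log axis) on the 4 astrocyte and 3 neuron arrays, by extract dose in µg/ml, with 1 panel per gene and 1 point per array; the dotted line is the floor of 17.9 and the dashed line the filter of 79.9. Apod stands at 5798.7 or more on the astrocyte arrays and at 37.2 or less on the neuron arrays. Olr1 climbs in astrocytes at 10 and 100 µg/ml and not in neurons at 10 µg/ml, the highest dose they received.

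Between the cell types, 3 of the 13 tested probe sets were higher in astrocytes (2 of Apoe, 1 of Apod), 2 were lower (Fabp5 and 1 of Scarb1) and 8 did not pass (limma, Benjamini-Hochberg adjusted p below 0.05). Among all 4709 probe sets tested, 30.2% passed, 12.2% higher and 18.0% lower. The median difference of all probe sets was -0.16 log2, astrocytes minus neurons, so differences are also given with each array centred on its median, an analysis added after the data were seen. Arrays of the cell types did not overlap for 7 of the 13, against 45.2% of all probe sets tested. Apod is in both counts and was tested only because its astrocyte signals passed the filter, so the filter favoured its difference.

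Apod, a lipocalin that binds arachidonic acid and progesterone and is made by glia, had signals of 6064.1, 5892.6, 5798.7 and 7699.1 in astrocytes at 0, 1, 10 and 100 µg/ml. In neurons at 0, 1 and 10 µg/ml it had 24.5, 37.2 and 31.0. The astrocyte mean was 6364 ± 897 (SD, n = 4) and the neuron mean 30.9 ± 6.35 (SD, n = 3), and every astrocyte array was far above every neuron array. The difference was 7.70 log2 (SE 0.19, 95% interval 7.25 to 8.15, limma adjusted p = 3.55e-07), or 207.5-fold, and 7.83 when centred. The genes whose profile over the 7 arrays was closest to it, of 2936 searched, were Igf2, Gpc3 and Crabp2, with root mean square differences of 0.547, 0.564 and 0.602 log2. Igf2 stands in the fibroblast and meningeal marker list above.

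Apoe, the main apolipoprotein of brain lipoproteins, was high in both cultures and moderately higher in astrocytes. Probe set S76779_s_at gave 29095.0, 28992.0, 26450.7 and 25174.0 in astrocytes, in order of dose, against 21602.8, 18376.7 and 21163.4 in neurons. Probe set X04979_at gave 32187.5, 32893.3, 27970.6 and 28419.4 in astrocytes, against 24548.7, 23208.3 and 24669.2 in neurons. On both probe sets all astrocyte arrays were above all neuron arrays.

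The Apoe difference was 0.43 log2 (SE 0.084, limma adjusted p = 0.00669) on S76779_s_at and 0.33 (SE 0.076, limma adjusted p = 0.0138) on X04979_at, and 0.56 and 0.46 when centred. The call on X04979_at was lost without the untreated neuron array (adjusted p = 0.0537) or without the neuron array at 1 µg/ml (adjusted p = 0.0671). X04979_at reached 92.8% to 99% of the brightest signal on the astrocyte arrays and 82.5% to 85.4% on the neuron arrays. Closest in profile to Apoe were Tmed10, Rps15 and Eif2d, with differences of 0.036, 0.051 and 0.057 log2.

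Fabp5, the epidermal type fatty acid binding protein, was lower in astrocytes. Its signals were 4478.1, 4289.5, 4596.9 and 6132.2 in astrocytes and 10208.9, 9705.5 and 10380.2 in neurons. The means were 4874 ± 848 (SD, n = 4) in astrocytes and 10098 ± 351 (SD, n = 3) in neurons, with no overlap. The difference was -1.07 log2 (SE 0.133, 95% interval -1.37 to -0.76, limma adjusted p = 0.000698), a 2.09-fold lower signal, and -0.93 when centred (adjusted p = 0.0116). Its relative Fabp7, the brain type protein, had 5977.4, 5950.5, 5275.9 and 4358.5 in astrocytes and 5842.3, 6271.8 and 5496.3 in neurons. Those ranges overlapped, and the Fabp7 difference was -0.13 log2 (95% interval -0.44 to 0.17, limma adjusted p = 0.482). Closest in profile to Fabp5 were Grik5, Foxk2 and Cntn1 (0.071, 0.072 and 0.097 log2), and to Fabp7 were Zfp622, Smn1 and Dpy19l1 (0.043, 0.079 and 0.079 log2).

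Scarb1, the high density lipoprotein receptor that passes cholesteryl ester across the membrane, was measured by 3 probe sets. D89655_at gave 475.8, 499.8, 493.2 and 445.5 in astrocytes and 694.7, 629.7 and 652.5 in neurons, with no overlap. The difference was -0.46 log2 (SE 0.134, limma adjusted p = 0.0352). This call did not hold when arrays were centred (-0.33, adjusted p = 0.115) or in 6 of the 7 fits that left out an array (adjusted p from 0.057 to 0.149), all except the fit without the astrocyte array at 100 µg/ml. AF071495_s_at gave 394.9, 405.5, 262.9 and 326.5 in astrocytes and 545.5, 425.0 and 436.9 in neurons (-0.45 log2, limma adjusted p = 0.148). On rc_AA874843_s_at the signals were 538.6, 626.2, 537.7 and 709.7 in astrocytes and 830.4, 651.9 and 752.1 in neurons (-0.31 log2, limma adjusted p = 0.207). The fit without the astrocyte array at 100 µg/ml gave that probe set -0.39 (adjusted p = 0.0498). Closest in profile to Scarb1 were Stip1, Tle5 and Grin2c (0.097, 0.098 and 0.104 log2).

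Lpl, the lipase that hydrolyses lipoprotein triglyceride at the cell surface, did not pass the cell type test on any of its 3 probe sets. L03294_g_at gave 1177.1, 1102.2, 667.2 and 1115.9 in astrocytes and 1350.7, 1284.1 and 1262.4 in neurons. L03294_at gave 442.4, 353.7, 215.8 and 414.1 in astrocytes and 576.1, 425.6 and 443.5 in neurons. rc_AI237731_s_at gave 854.0, 806.6, 394.1 and 791.2 in astrocytes and 937.2, 736.1 and 891.6 in neurons. The astrocyte array at 10 µg/ml was the lowest of the 7 on each. The differences were -0.39, -0.47 and -0.32 log2 in the same order, with limma adjusted p of 0.210, 0.237 and 0.438. The 95% intervals were -0.89 to 0.11, -1.12 to 0.17 and -0.99 to 0.35. Closest in profile to Lpl were Bcl2, Cyp2d4 and Tango2 (0.124, 0.135 and 0.136 log2).

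Vldlr, the very low density lipoprotein receptor, which also binds reelin, stayed under the filter, with 47.6, 50.5, 47.8 and 39.0 in astrocytes and 60.6, 69.5 and 57.7 in neurons. The arrays did not overlap, and a fit without the filter gave -0.44 log2 (SE 0.139, limma adjusted p = 0.101).

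**Figure D2:**
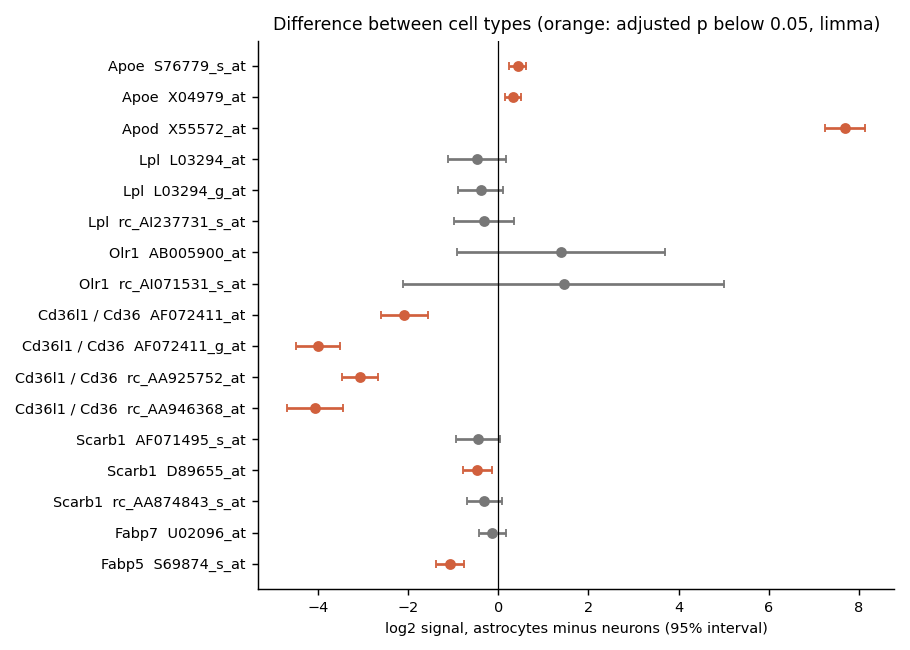
Difference in log2 signal, astrocytes minus neurons, for each tested probe set, with 95% intervals from limma over 4 astrocyte and 3 neuron arrays; orange marks an adjusted p below 0.05. Apod stands at 7.70, Apoe at 0.43 and 0.33 and Fabp5 at -1.07, and the intervals of Lpl and Fabp7 include 0.

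Cd36, the class B scavenger receptor for long chain fatty acids and oxidised lipoprotein, was near the floor on the 2 probe sets given to it alone. AB005743_at read 4.3, 5.4, 12.1 and 12.9 in astrocytes and 2.0, 18.7 and 3.5 in neurons, and AB005743_g_at was at the floor on all 7 arrays. The 5 probe sets given to both Cd36 and Cd36l1 behaved otherwise, and what they measure cannot be assigned to either gene. Of these, 4 were tested, all of which passed the filter through the neuron arrays alone, so a lower astrocyte signal was largely fixed by the filter and is given as a description. All 4 were lower in astrocytes with no overlap, against 18.0% lower and 45.2% not overlapping among all probe sets tested. AF072411_g_at gave 28.0, 18.1, 20.7 and 18.6 in astrocytes and 323.8, 347.5 and 339.4 in neurons, a difference of -4.00 log2, or 16.0-fold. The other three, rc_AA946368_at, rc_AA925752_at and AF072411_at, were at least 16.8-fold, 8.38-fold and 4.25-fold lower in astrocytes, lower bounds because some or all of their astrocyte signals were at the floor. The fifth, rc_AA799326_s_at, was at the floor on all 7 arrays.

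Olr1 encodes the lectin-like receptor for oxidised low density lipoprotein, known as an inflammation-inducible gene of endothelium and macrophages. It was low in untreated astrocytes and in neurons, and rose with dose in astrocytes. On rc_AI071531_s_at the signals were 23.2, 27.8, 379.4 and 2219.2 in astrocytes at 0, 1, 10 and 100 µg/ml, and 67.4, 69.2 and 37.3 in neurons at 0, 1 and 10 µg/ml. On AB005900_at they were 21.5, 35.5, 108.7 and 532.2 in astrocytes and 31.9, 32.0 and 29.1 in neurons. AB018104cds_s_at was at the floor on all 7 arrays. Astrocytes at 10 and 100 µg/ml were above every other array on both responding probe sets.

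The promoter windows of Olr1, of the 2 most similar genes that have one and of Apod are shown because Olr1, Cxcl2 and Il1a moved together with dose and Apod separated the cell types. Each is the 250 bases before the annotated start in RefSeq (GRCr8), 5′ to 3′ on the gene's strand, and 6 of the 9 genes have such a window. Capitals mark matches on either strand to motifs bound by the factors AP-1, which has the letters TGANTCA, by C/EBP, which has the letters TTGCNNAA, and by NF-kB, and to the core promoter element spelled TATAAA.
Olr1, chr4:164634548-164634797, minus strand: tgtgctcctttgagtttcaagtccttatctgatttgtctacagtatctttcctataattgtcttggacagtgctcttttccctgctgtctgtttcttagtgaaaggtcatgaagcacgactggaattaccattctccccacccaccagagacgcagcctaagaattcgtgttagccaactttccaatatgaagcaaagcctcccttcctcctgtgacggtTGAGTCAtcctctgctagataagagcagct
Cxcl2, chr14:17467256-17467505, minus strand: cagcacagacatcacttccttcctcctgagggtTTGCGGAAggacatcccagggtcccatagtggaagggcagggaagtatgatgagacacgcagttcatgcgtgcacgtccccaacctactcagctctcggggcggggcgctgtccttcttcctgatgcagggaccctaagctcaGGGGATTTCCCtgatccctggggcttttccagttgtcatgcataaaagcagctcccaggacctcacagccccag
Il1a, chr3:136990018-136990267, minus strand: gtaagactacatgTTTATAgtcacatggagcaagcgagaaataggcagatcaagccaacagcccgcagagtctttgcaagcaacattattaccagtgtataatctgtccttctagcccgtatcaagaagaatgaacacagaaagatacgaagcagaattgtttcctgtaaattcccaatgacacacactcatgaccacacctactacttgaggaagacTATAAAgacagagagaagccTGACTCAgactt
Apod, chr11:82935970-82936219, plus strand: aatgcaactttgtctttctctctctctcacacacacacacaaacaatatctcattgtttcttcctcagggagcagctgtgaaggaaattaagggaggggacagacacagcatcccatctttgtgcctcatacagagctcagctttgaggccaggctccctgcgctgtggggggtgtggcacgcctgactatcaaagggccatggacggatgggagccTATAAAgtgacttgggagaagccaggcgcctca

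The Olr1 window holds 1 AP-1 match, beginning 30 bases before the start, and the Il1a window 1 beginning 12 bases before it. AP-1 letters occur in 6.34% of the 33469 windows of that length. Cxcl2 has a C/EBP match 217 bases before the start and 2 overlapping NF-kB matches 74 and 73 bases before it, letters found in 9.22% and 6.33% of windows. The core promoter letters, in 12.9% of windows, stand 33 bases before the Apod start and 32 and 237 bases before that of Il1a. A match is a run of letters and was not measured as a bound site.

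Set against the untreated astrocyte array, Olr1 at 10 µg/ml was 16.4-fold higher on rc_AI071531_s_at and 5.06-fold on AB005900_at. At 100 µg/ml the median change of all probe sets tested in astrocytes was -0.26 log2. Relative to that median the changes were 6.84 and 4.89 log2, and as deposited 6.58 and 4.63. At least 2-fold higher signals were seen in 4.30% of all 4252 probe sets at 10 µg/ml, where 6.51% changed in either direction, in 6.63% at 100 µg/ml, where 25.6% did, and in 2.80% at both doses, and both Olr1 probe sets were among the last. As both passed the filter only through the astrocyte arrays, where the treated signals were high, their count carries no weight of its own.

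The slope of log2 signal on log10 of the dose plus 1 was 3.50 in astrocytes for rc_AI071531_s_at (SE 0.269, limma adjusted p = 0.00135) and 2.30 for AB005900_at (SE 0.143, limma adjusted p = 0.000866). Their treated astrocyte signals brought both probe sets past the filter, so these tests were made on probe sets favoured for a rise. Of all probe sets 20.6% had an astrocyte slope that passed, 5.03% upward (237) and 15.5% downward (732). Those shares were unstable, with 27 upward and 3 downward when any 1 of the 3 neuron arrays was left out, and 424 and 1270 when the 10 µg/ml astrocyte array was. With the 1 µg/ml astrocyte array left out they were 54 and 24, and with that at 100 µg/ml left out 103 and 53. Without the untreated neuron array, or that at 1 or at 10 µg/ml, the limma adjusted p was 0.048, 0.0478 and 0.0482 for rc_AI071531_s_at, and 0.0181, 0.0178 and 0.0185 for AB005900_at. No other slope among the 13 passed. In neurons no slope passed for any of the 4709 probe sets (0%), and 90 had an unadjusted p below 0.05 by limma, fewer than 1 in 20. The fit shared its spread between the cell types, so departures of astrocyte arrays from a line also entered the neuron errors. The neuron slopes of Olr1 were -0.89 for rc_AI071531_s_at and -0.14 for AB005900_at, and 0.13 and 0.015 without the neuron array at 10 µg/ml. The difference of slopes, astrocytes minus neurons, was 4.39 (SE 0.611) for rc_AI071531_s_at and 2.44 (SE 0.325) for AB005900_at. Both had a limma adjusted p of 0.0951, in a test that 0.0212% of probe sets passed. With only the doses both cell types received, rc_AI071531_s_at gave 4.99 with an adjusted p of 0.047 and AB005900_at 2.37 with 0.13, in a fit where 33 probe sets passed upward and 5 downward. Without the filter, the astrocyte slope had a limma adjusted p of 0.0635 for rc_AI071531_s_at and 0.0409 for AB005900_at. Pooled over doses, the Olr1 difference between cell types did not pass (1.45 and 1.40 log2, limma adjusted p = 0.512 and 0.328). On the 6 arrays at shared doses it was 0.16 and 0.49 log2 (limma adjusted p = 0.911 and 0.495).

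**Figure D3:**
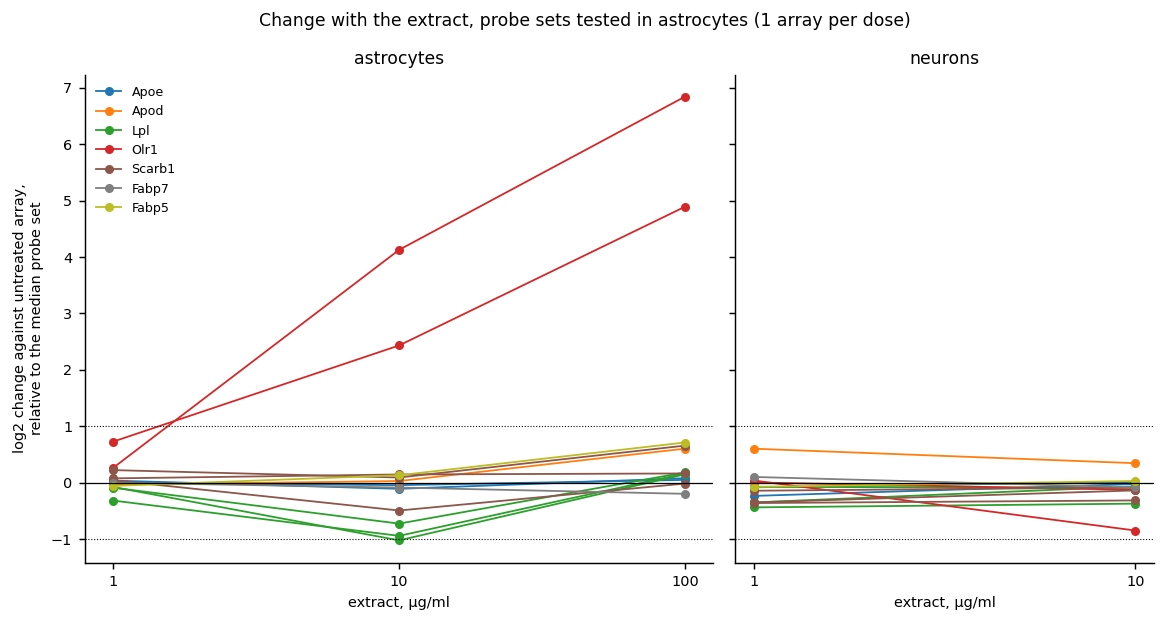
Change in log2 signal of each treated array from the untreated culture of the same type, relative to the median probe set, by extract dose in µg/ml for the 13 probe sets tested in astrocytes, in astrocytes (left) and neurons (right); dotted lines mark 2-fold. The neuron panel includes Olr1 and Apod, which did not pass the filter there. Both Olr1 lines reach 4.89 and 6.84 in astrocytes at 100 µg/ml, and Lpl dips at 10 µg/ml.

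The genes whose profile was closest to that of Olr1 were Cxcl2, Csf3 and Il1a, at 0.353, 0.506 and 0.511 log2 over the 7 arrays. They encode a neutrophil chemokine, a granulocyte growth factor and an interleukin. Cxcl2 read 81, 91.6, 1224.2 and 9014.1 in astrocytes by dose and 158.6, 133.3 and 135.5 in neurons. The summed microglia and macrophage marker signal in astrocyte cultures, by dose, was 30947.9, 33108.8, 33457.5 and 28729.8. At 100 µg/ml its genes went both ways, as 2 of the 9 tested rose 2-fold or more and 1 fell as far. Among all genes tested in astrocytes, 6.31% rose and 19.5% fell that much. The median change of the 9 was -0.40 log2, or -0.14 relative to the median probe set, so the typical marker did not rise. In astrocytes by dose, the Fc receptor gene Fcgr2b read 248.3, 258, 617.8 and 1161.7, the galectin gene Lgals3 4671.9, 5691, 7267.4 and 11429.6, and Aif1 1636.5, 1382.2, 1425.9 and 250.8, chosen after their values were seen. Their part in the Olr1 signal was not tested.

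**Figure D4:**
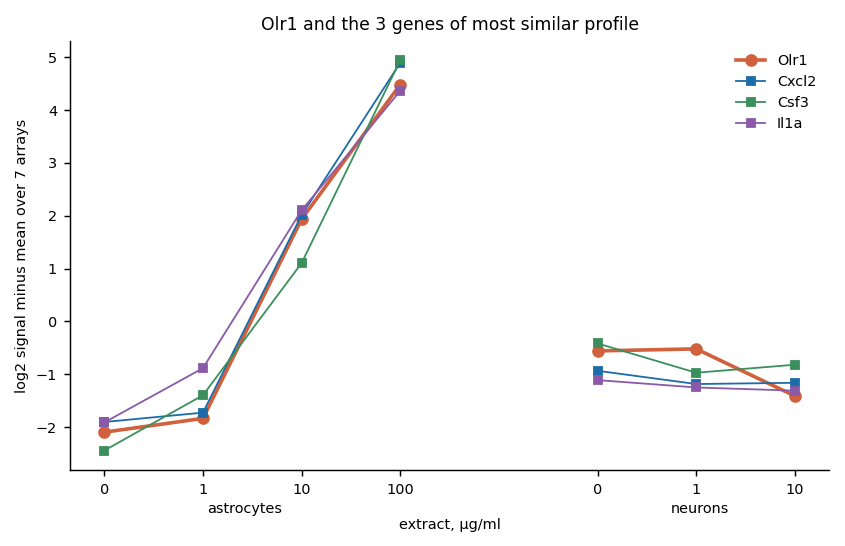
Log2 signal minus its own mean over the 7 arrays for Olr1 (rc_AI071531_s_at) and the 3 genes of closest profile, for the 4 astrocyte and 3 neuron arrays by extract dose in µg/ml. All 4 lines are high in astrocytes at 10 and 100 µg/ml and low on the other arrays.

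Lpl was lower on 1 treated array. At 10 µg/ml in astrocytes 2 probe sets of Lpl were at least 2-fold lower, against 2.21% of all probe sets. The changes were -1.12 log2 on rc_AI237731_s_at, -1.04 on L03294_at and -0.82 on L03294_g_at, or -1.02, -0.94 and -0.72 relative to the median, which leaves 1 past 2-fold. At 100 µg/ml they were -0.11, -0.10 and -0.08, or 0.15, 0.17 and 0.18 relative to the median, so the dip was on 1 array. At that dose 19.0% of all probe sets were at least 2-fold lower and none of the 13 was.

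At 100 µg/ml in astrocytes Fabp5 was 0.45 log2 above the untreated array and 0.71 relative to the median, and Apod 0.34 and 0.60. The probe sets of Scarb1 differed, with 0.40 on rc_AA874843_s_at, -0.27 on AF071495_s_at and -0.09 on D89655_at. Relative to the median these were 0.66, -0.01 and 0.17. Fabp7 was -0.46, or -0.20 relative to the median. Apoe was -0.21 and -0.18 on its 2 probe sets, but 0.05 and 0.08 relative to the median, so its direction depended on the scaling. The astrocyte slopes of Fabp7 (-0.24, limma adjusted p = 0.0629) and Fabp5 (0.24, limma adjusted p = 0.0773) did not pass. Without the astrocyte array at 10 µg/ml these had adjusted p of 0.0365 and 0.0285. At 1 µg/ml in astrocytes, and at 1 and 10 µg/ml in neurons, no probe set of the 9 genes that was tested there changed 2-fold, against 2.00%, 0.561% and 0.764% of all probe sets.

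Other lipid genes were counted in lists, each gene by its brightest probe set. Over all 2943 genes tested, 12.7% were higher and 17.3% lower in astrocytes, with a median of -0.15 log2. Of lipases, lipid transfer and export genes, 5 of 7 were higher and 0 lower, with a median of 1.77. These were Pnlip (2.01), Plin2, which coats lipid droplets (1.94), Mgll, which cleaves monoacylglycerol (1.87), Cyp27a1, a sterol hydroxylase (1.77), and Lipa, the lysosomal acid lipase (1.45). In astrocytes at 100 µg/ml Mgll was 1.59 and Plin2 1.04 above the untreated array. Cyp27a1 was 0.66 above it on its brightest probe set and 2.71 on its other. Lipa was -1.05 on its brightest probe set, or -0.79 relative to the median and so inside 2-fold there. Another Lipa probe set was -1.34, which stays past 2-fold once the median of -0.26 is taken off.

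Of 5 other lipoprotein and scavenger receptors and their partners, 0 were higher and 2 lower, with a median of 0.24. Lrp2, the large endocytic receptor megalin, read 83.2, 87.7, 68.9 and 367 in astrocytes and 1500.5, 2102.6 and 974.3 in neurons (-3.64 log2). Reln, the secreted ligand of Vldlr, read 180.7, 140.2, 195 and 402.8 in astrocytes and 1284.9, 1428.6 and 972.4 in neurons (-2.52 log2). Both were at least 2-fold above the untreated astrocyte array at 100 µg/ml, by 2.14 and 1.16 log2, and both stayed below every neuron array.

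Of 11 other fatty acid and retinoid binding proteins, 3 were higher and 4 lower, with a median of -0.11. The retinoic acid carrier Crabp2 (6.62), the lipocalin Ptgds (5.61) and the retinol carrier Rbp4 (1.56) were higher in astrocytes. Crabp2 and Ptgds passed the filter through the astrocyte arrays alone, so the filter favoured their calls and the count that holds them. Their values are lower bounds, since some of their neuron signals were at the floor. Lcn2 (-3.65), the transthyretin gene Ttr (-1.70), Crabp1 (-0.92) and Fabp3 (-0.84) were lower. Lcn2 passed the filter through the neuron arrays alone, so the filter favoured its call. Some of its astrocyte signals were at the floor, so its difference is at least that large. Of 8 lipid-sensing nuclear receptors 0 were higher and 1 lower, Rxrg (-3.33), with a median of -0.12. Rxrg also passed the filter through the neuron arrays alone, which favoured its call. None of the 3 other apolipoproteins tested passed in either direction, with a median of 0.07. Calls are by limma with an adjusted p below 0.05 over all probe sets.

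**Figure D5:**
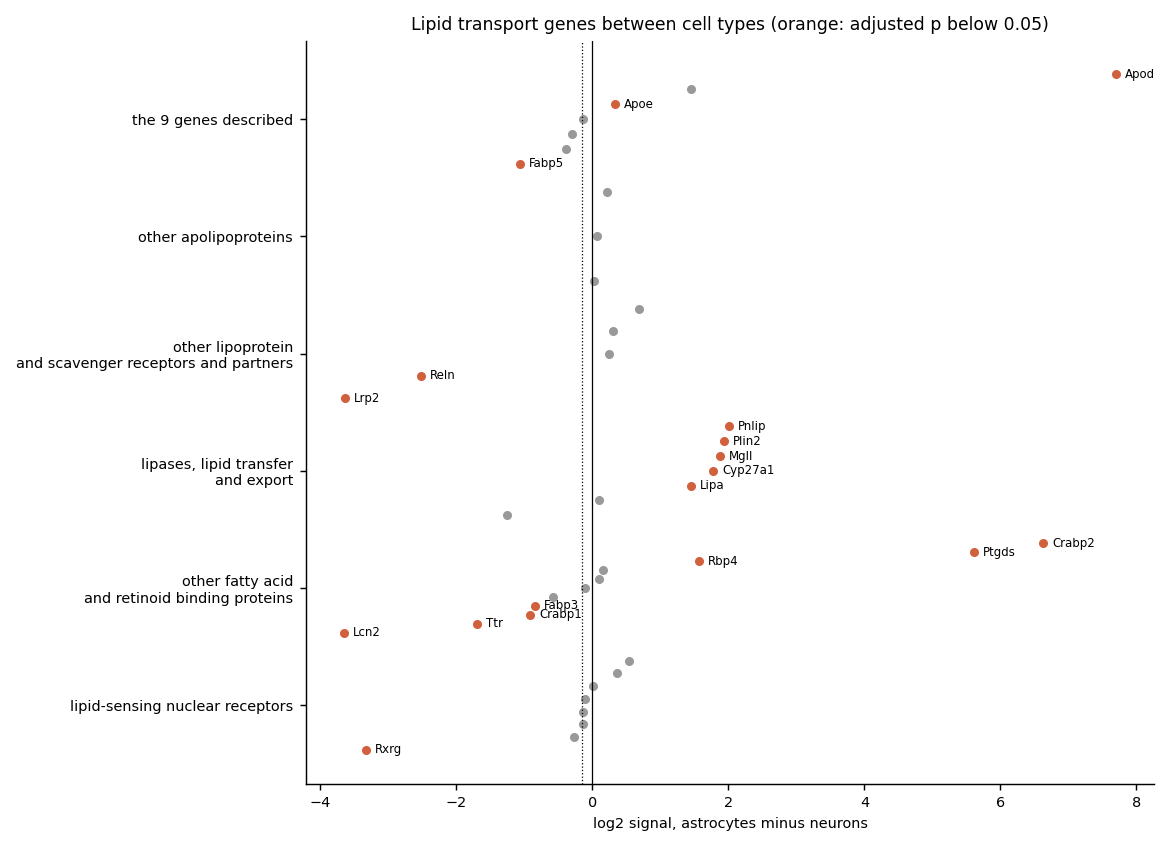
Difference in log2 signal, astrocytes minus neurons, of each tested gene (brightest probe set) in the 9 genes described and 5 lists of lipid genes, 1 point per gene; orange and a name mark an adjusted p below 0.05 (limma, 4 astrocyte and 3 neuron arrays) and the dotted line is the median of all probe sets, -0.16. The called lipases and export genes all lie to the right, between 1.45 and 2.01.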

How the data were processed

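The deposited values are signal intensities on a linear scale, computed by the authors with GCOS per the submitters' processing notes, with no software version or settings stated there. Per the labels' protocols, 100 ng of silica-membrane RNA was labelled in a two-cycle procedure. The 2%-trimmed means were 500.731 to 500.874, so the deposited scale was kept. Of 8799 probe sets 59 controls were left out. One symbol was given for 7006, several for 308 and none for 1426, and 6985 were found by gene ID in RefSeq.

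Signals were floored at 17.9 before log2. limma 3.58.1 in R 4.3.3 (trended prior, two-sided, Benjamini-Hochberg, threshold 0.05) compared cell types (5 residual degrees of freedom) and fitted slopes on log10 of the dose plus 1 (3 degrees). Treated arrays were set against the untreated array at 2-fold, without a test. The code of the fits was run on simulated data with the same spread for all probe sets. These data differ from that, so the run says nothing of error rates here. Figures used Python 3.11.15 and matplotlib 3.10.9. The genes and lists were chosen with earlier results of these data known. Named were all 9 genes, the 3 closest profiles of each, and in each list up to 3 genes each way past the cell type test or 2-fold at 100 µg/ml; Cyp27a1, Lipa's cell type value and Fabp3 were added after their values were seen. Alternatives were quantile normalization, the floor, filter, variance prior, dose scale, reference array, mean over probe sets, dose as a block and leaving out each array; centring was added after seeing the data. Nothing says whether cultures came from separate animals, so p-values measure the spread between these arrays.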

Additional observations from a re-analysis of the deposited data

Results flagged for a closer look

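Dixon's ratio of gap to range was taken over the 4 astrocyte arrays, which differ in dose, for the 13 tested probe sets. At the 95% level 1 array stood apart from the others in 3 of them. The ratio was 0.842 for Apod, where the array at 100 µg/ml was highest. It was 0.884 for Lpl on L03294_g_at and 0.901 for Lpl on rc_AI237731_s_at, where the array at 10 µg/ml was lowest. Chance alone flags about 1 in 20 groups.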

How the results depend on the processing

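Counts are of probe sets of the 9 genes. Those lower in astrocytes numbered 2, and 1 after quantile normalization, centring or averaging over the probe sets of a gene, and 1 to 3 with an array left out. Upward astrocyte slopes numbered 2, and 1 without the filter and 0 with it at the 75th percentile (435.7), which removes low probe sets by construction. Downward ones numbered 0, and 1 after quantile normalization (Fabp7) and 0 to 1 with an array left out. The slope difference passed for 0, and for 1 with doses up to 10 µg/ml. At 10 µg/ml the 2 astrocyte probe sets at least 2-fold higher became 0 with the stricter filter and with gene means. The 2 lower became 1 with the stricter filter, lower-dose mean, 1 µg/ml reference or centring, and 0 with gene means. At 100 µg/ml the 2 higher became 0 in the same ways. Averaged with its probe set at the floor, Olr1 did not pass the filter, so gene means hold no value for it. With dose as a replicate block, on the 6 arrays whose dose both cell types received, Fabp5 gave -1.18 log2 (limma adjusted p = 0.000352) and no call among the 9 genes was lost. No call turned sign, and no cell type difference did. Values that had passed no threshold did so 44 times in slopes or slope differences. The largest of these was -0.89 (the neuron slope of Olr1 rc_AI071531_s_at, 0.13 without the neuron array at 10 µg/ml). They did so 30 times in changes against the untreated array, whose largest reported size was 0.38 log2 (Lpl L03294_at in neurons at 10 µg/ml, 0.06 against the 1 µg/ml array). Lpl L03294_at in astrocytes at 100 µg/ml was -0.10 as reported and 0.36 against the mean of lower doses. Over all probe sets, those higher in astrocytes numbered 910 without the astrocyte array at 100 µg/ml, against 575, and those lower 505 with the stricter filter, 546 without the untreated neuron array and 559 without that at 1 µg/ml, against 848. Upward and downward astrocyte slopes over all probe sets, 237 and 732, numbered 6 and 4 without the filter, 37 and 10 with ranked doses, 30 and 3 with astrocytes fitted alone and 404 and 474 when centred, and downward ones 439 with the stricter filter and 1125 with untransformed dose. Upward slope differences numbered 3 after quantile normalization, against 1. For X04979_at of Apoe, the adjusted p was 0.0704 without the filter and 0.0999 with a constant prior. The Fabp5 astrocyte slope passed with untransformed dose (adjusted p = 0.0221). No detection calls were used, so low signals are judged by the floor alone.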

Other observations

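Values of 2 further lipid binding genes were chosen after they were seen. Fabp4, the adipocyte and macrophage fatty acid binding protein, read 3.9, 4.2, 22.1 and 176.7 in astrocytes at 0, 1, 10 and 100 µg/ml and 4.9, 4.6 and 1.9 in the 3 neuron cultures by dose, and did not pass the filter. Lcn2, a lipocalin of the acute phase response, read 6.8, 17.3, 74.5 and 373.9 in astrocytes and 711.7, 736.7 and 616.9 in neurons, so all astrocyte arrays stayed below the neuron arrays. Each dose is 1 array, with no repeat.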
